A study of Mus musculus with 8 samples.

Results

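The Serpina protease inhibitors described here are 10 genes of mouse liver: Serpina1a, Serpina1b, Serpina1c, Serpina1d, Serpina1e, Serpina3k, Serpina3m, Serpina3n, Serpina6 and Serpina10. They were taken by gene name from the deposited mRNA table, where each name had 1 row of raw read counts among 16122 genes. All 10 passed the filter on low counts and were tested among 12351 genes. The table lists 12 other Serpina genes, which are described at the end of the results. RNA came from frozen livers of male C57BL/6J mice, and bulk RNA sequencing gave 4 libraries in the NASH group (nonalcoholic steatohepatitis, in which fat in the liver comes with inflammation) and 4 in the WT group. Every sample carries the genotype WT, so the groups do not differ by a mutation. According to the design text, mice bought at 8 weeks of age ate either a normal diet or a diet high in fat, cholesterol and fructose, for 28 weeks. That NASH stands for the rich diet and WT for the normal diet is a reading of these labels, which do not tie the names to the diets. No label states that each library is a separate animal, so p-values measure the spread between libraries, which may be technical.

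Serpins are inhibitors that offer a protease an exposed stretch, the reactive centre loop, as a bait. When the protease cuts the loop, the inhibitor changes shape and traps the protease in a covalent complex. Hepatocytes secrete many Serpina proteins into blood. Humans have a single gene for alpha-1 antitrypsin, the main inhibitor of neutrophil elastase, whereas the mouse carries several near-identical copies, here Serpina1a to Serpina1e. The Serpina3 genes are the mouse counterparts of human alpha-1 antichymotrypsin, an acute phase protein, and have also multiplied in rodents. Serpina6, corticosteroid-binding globulin, carries corticosterone in blood and inhibits no protease. Serpina10, the protein Z-dependent protease inhibitor, blocks coagulation factor Xa.

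All 10 genes lie on chromosome 12, within 799.5 kb (chr12:103614786-104414329, GRCm38, GENCODE annotation). Serpina10, Serpina6 and the 5 Serpina1 genes are on the minus strand, and the Serpina3 genes on the plus strand. The coding sequences of the Serpina1 genes are identical at 96.3% to 98.5% of bases between any 2 of them. They differ more in the stretch that holds the reactive centre loop: 18 of 81 bases (22.2%) were not shared by all 5 genes, against 68 of 1161 bases (5.9%) in the rest of the coding sequence. The loop stretches are shown because the loop is what a protease meets, and because the differences lie more densely there than in the rest, which holds the larger number of them. Each line gives the coding strand, coding bases 1087 to 1167, and capitals mark the bases that are not shared by all 5 genes. The stretches lie at chr12:103853750-103853830 for Serpina1a, chr12:103728317-103728397 for Serpina1b, chr12:103895087-103895167 for Serpina1c, chr12:103763755-103763835 for Serpina1d and chr12:103947093-103947173 for Serpina1e, all on the minus strand of GRCm38.
Serpina1a: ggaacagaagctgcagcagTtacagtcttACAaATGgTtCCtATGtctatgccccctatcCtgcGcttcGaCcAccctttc
Serpina1b: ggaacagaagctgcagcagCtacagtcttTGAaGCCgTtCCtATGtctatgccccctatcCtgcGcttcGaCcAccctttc
Serpina1c: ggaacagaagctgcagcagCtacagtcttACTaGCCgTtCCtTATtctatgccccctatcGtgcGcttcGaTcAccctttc
Serpina1d: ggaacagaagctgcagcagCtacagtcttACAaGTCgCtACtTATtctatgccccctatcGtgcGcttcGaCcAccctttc
Serpina1e: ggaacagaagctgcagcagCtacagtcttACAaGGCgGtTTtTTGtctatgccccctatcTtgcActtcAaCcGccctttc
No 2 of these stretches were the same. Serpina1e differed from the other 4 at 10 to 12 bases, whereas Serpina1c and Serpina1d differed from each other at 5.

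The Serpina3 loops are shown because the loop is what a protease meets. Whether differences between these genes lie more densely in the loop was not measured. The coding sequences of Serpina3k, Serpina3m and Serpina3n are identical at 82.6% to 90.9% of bases. Here the capitals mark only a position, the bases between the first 24 and the last 15 of each stretch, and not a difference between the genes. The stretches lie at chr12:104345269-104345352 for Serpina3k, chr12:104393769-104393858 for Serpina3m and chr12:104413448-104413537 for Serpina3n, on the plus strand of GRCm38.
Serpina3k: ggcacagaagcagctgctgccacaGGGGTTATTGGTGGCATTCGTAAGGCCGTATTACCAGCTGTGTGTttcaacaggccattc
Serpina3m: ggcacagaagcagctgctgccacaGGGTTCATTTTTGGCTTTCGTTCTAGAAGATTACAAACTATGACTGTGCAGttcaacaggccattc
Serpina3n: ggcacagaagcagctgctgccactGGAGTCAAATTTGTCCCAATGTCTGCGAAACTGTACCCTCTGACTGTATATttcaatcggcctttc
The Serpina3k stretch, at 84 bases, is shorter than the stretches of 90 bases in Serpina3m and Serpina3n. Serpina6 and Serpina10 are more distant, with 48.9% to 58.8% and 47.1% to 51.9% identity to the other members.

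This likeness bears on the counts, since a read that fits several copies can be lost or assigned to the wrong one. Of all stretches of 100 coding bases, 61.2% in Serpina1a, 27.9% in Serpina1b, 61.7% in Serpina1c, 29.8% in Serpina1d and 19.1% in Serpina1e were also present, base for base, in another member. The share was 8.2% in Serpina3k and in Serpina3m, and 0.0% in Serpina3n, Serpina6 and Serpina10. Values of single Serpina1 genes are thus less certain than their sum, and those of Serpina1a and Serpina1c are the least certain. The sum is free of wrong assignment among the copies but not of lost reads. Such a loss could reach more of Serpina1a and Serpina1c than of Serpina1e, which would then weigh more in the sum. How these reads were counted is not given. Serpina3k and Serpina3m share 60 exon bases in the annotation.

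The library totals ranged from 25760117 to 32684719 counts. Those of NASH replicates 1 and 4, 26270597 and 26270596, differed by 1 count, although the counts of their genes differed. Levels below are CPM, counts per fixed library size, after TMM scaling, edgeR's correction for differences in composition, whose factors ran from 0.873 to 1.40. Over the whole table, 1597 of 12351 genes (12.9%) were higher in NASH and 741 (6.00%) were lower (edgeR's quasi-likelihood test, Benjamini-Hochberg adjusted p under 0.05). In the same test 4 of the 10 members were lower and 0 were higher, and 6 were not called. At an unadjusted p under 0.05 there were 8 members, where 36.1% of all genes tested were, and 2 of them were higher, as were 21.3% of all genes tested. The median log2 fold change was -0.97 over the 10 members and 0.012 over all genes tested. Where no other tool is named, adjusted p-values of genes are edgeR's.

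The 10 members together held 2.29%, 1.62%, 1.11% and 1.81% of all counts in NASH replicates 1 to 4, against 2.77%, 2.51%, 3.27% and 3.30% in WT replicates 1 to 4. Every NASH library was below every WT library. For 6 of the 10 members (all but Serpina3m, Serpina3n, Serpina6 and Serpina10) the highest NASH library was below the lowest WT library, as for 12.2% of the genes tested. For 0 of the 10 members every NASH library was above every WT library, as for 14.6% of the genes tested.

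**Figure D1:**
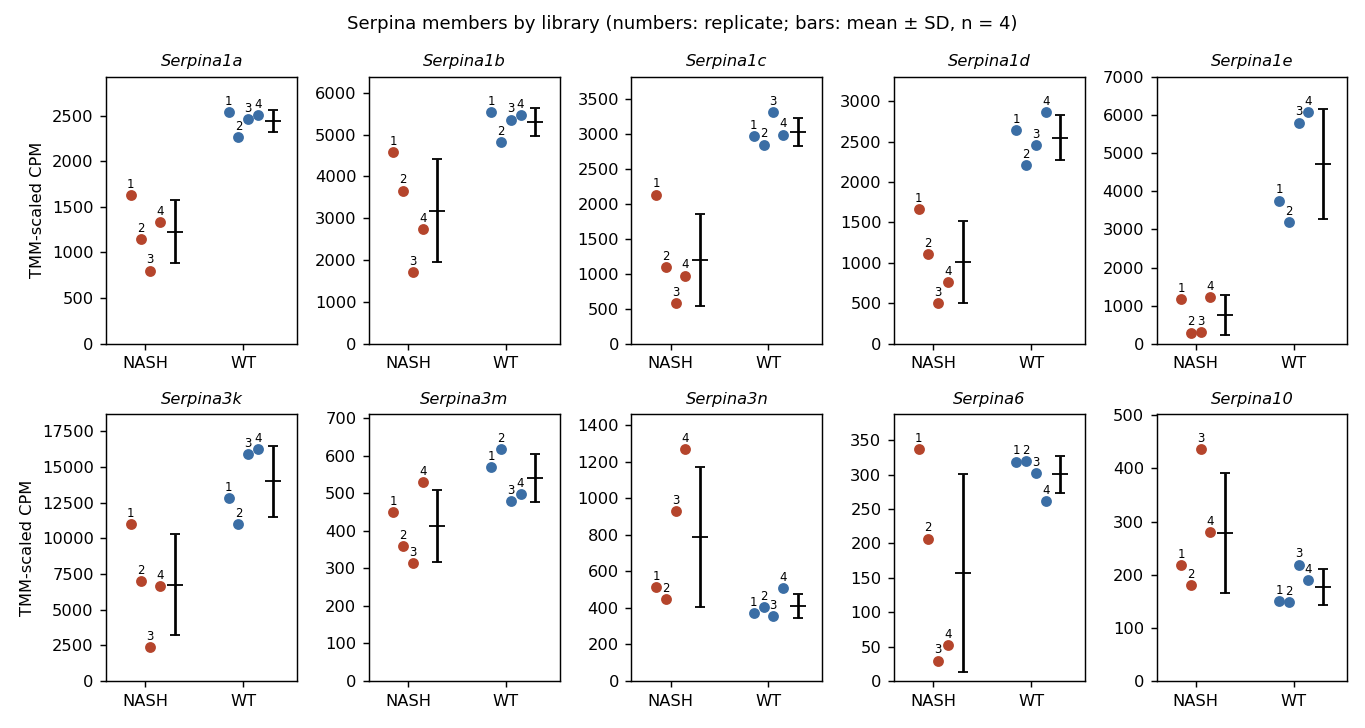
Level of each of the 10 genes in TMM-scaled CPM (vertical axes, linear from 0), in 4 NASH libraries (red) and 4 WT libraries (blue), with the replicate number at each point and mean ± SD as bars. The groups do not overlap for the 5 Serpina1 genes and Serpina3k, and NASH replicate 3 is the lowest of all libraries for 7 genes.

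Of the 5 alpha-1 antitrypsin genes, 4 were lower in NASH livers and 1, Serpina1b, was not called. Their summed level was 11166, 7297, 3881 and 7032 CPM in NASH replicates 1 to 4, against 17461, 15336, 19397 and 19923 CPM in WT replicates 1 to 4. All NASH libraries were below all WT libraries, and NASH replicate 3 was the lowest. The sum averaged 7344 ± 2983 CPM in NASH livers and 18029 ± 2085 CPM in WT livers (SD, n = 4 each), a log2 fold change of -1.30 with a standard error (SE) of 0.36 and an adjusted p of 0.0344. In bulk liver, fewer cells of a type and less RNA per cell cannot be told apart. In the 11 hepatocyte markers analysed, 1 was higher (Hp, haptoglobin, itself an acute phase protein), 0 were lower and 10 were not called. The call of Hp was lost without NASH replicate 4 or any 1 WT library (adjusted p = 0.0636 to 0.0861). Their summed level, mostly Alb (albumin), was 63820 to 120864 CPM in NASH livers and 154768 to 186656 CPM in WT livers, and NASH replicate 3 was again the lowest.

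Among the 5 copies, Serpina1e had the largest log2 fold change. It had 1163, 287, 292 and 1230 CPM in NASH replicates 1 to 4, against 3760, 3200, 5810 and 6093 CPM in WT replicates 1 to 4. The groups lay far apart, and within each the libraries were uneven: NASH replicates 2 and 3 were the lowest of all, and WT replicates 3 and 4 the highest. Serpina1e fell by 2.67 on the log2 scale (SE 0.56, adjusted p = 0.0147), to 0.158 of the WT level. It was called in each of the 14 alternative fits, with adjusted p-values of 1.3e-06 to 0.0437.

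Serpina1a, Serpina1c and Serpina1d fell as well. Serpina1a had 1624, 1143, 801 and 1330 CPM in NASH livers, against 2540, 2264, 2459 and 2503 CPM in WT livers (log2 fold change -1.0, SE 0.25, adjusted p = 0.0252). Serpina1c had 2129, 1097, 576 and 971 CPM in NASH livers, against 2970, 2842, 3311 and 2985 CPM in WT livers (log2 fold change -1.34, SE 0.37, adjusted p = 0.0346). Serpina1d had 1664, 1111, 500 and 757 CPM in NASH livers, against 2646, 2213, 2455 and 2868 CPM in WT livers (log2 fold change -1.34, SE 0.35, adjusted p = 0.0306). In each, NASH replicate 1 was nearest to the WT libraries and NASH replicate 3 was farthest, while the WT libraries lay close together. Serpina1b had 4586, 3659, 1712 and 2744 CPM in NASH livers, against 5545, 4816, 5361 and 5474 CPM in WT livers. Its groups did not overlap, but NASH replicate 1 was close to WT replicate 2, and the difference was not called (log2 fold change -0.74, SE 0.32, adjusted p = 0.129). The calls of Serpina1a, Serpina1c and Serpina1d, and with them that of the sum, were lost when some libraries were left out. Without NASH replicate 2, NASH replicate 4 or any 1 of the WT libraries, Serpina1e was the only member called as lower (1 member), and the adjusted p-values ran from 0.0512 to 0.0745 for Serpina1a, 0.0687 to 0.096 for Serpina1c, 0.0511 to 0.0879 for Serpina1d and 0.0621 to 0.093 for the sum. Without NASH replicate 1, 6 members were lower, among them Serpina1b (adjusted p = 0.0451), where 1504 of 12583 genes tested (12%) were lower.

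The make-up of the Serpina1 counts was compared next, since a share within the sum is not touched by the scaling of the libraries. Serpina1e made up 10.4%, 3.93%, 7.53% and 17.5% of the sum in NASH replicates 1 to 4, against 21.5%, 20.9%, 30% and 30.6% in WT replicates 1 to 4. Every NASH library was below every WT library, by 15.9 percentage points in the mean (9.84% ± 5.75 in NASH livers and 25.7% ± 5.25 in WT livers, SD, n = 4 each). Serpina1b made up 41.1%, 50.1%, 44.1% and 39.0% of the sum in NASH livers, against 31.8%, 31.4%, 27.6% and 27.5% in WT livers. Its share was higher in every NASH library, by 14.0 points in the mean. The shares of a library add up to the whole, so the results for Serpina1e and Serpina1b are not independent. The level of Serpina1b itself was not higher in NASH livers (log2 fold change -0.74, not called). For both genes the two-sided exact permutation p was 0.029, the smallest that 4 against 4 libraries allow, and 0.0714 after adjustment over the 5 shares. The shares of the other copies overlapped between groups: they averaged 17.4% and 13.6% for Serpina1a, 15.7% and 16.9% for Serpina1c, and 13.4% and 14.2% for Serpina1d in NASH and WT livers (exact permutation p = 0.0857, 0.429 and 0.657).

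**Figure D2:**
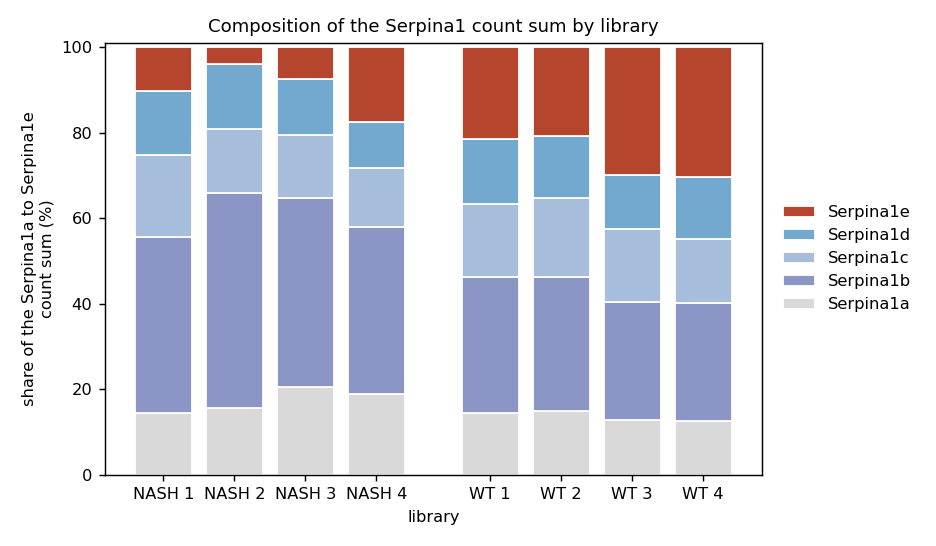
Share of each of the 5 genes in the Serpina1a to Serpina1e count sum (vertical axis, percent), 1 bar per library, NASH on the left and WT on the right. The Serpina1e segment at the top takes 3.93% to 17.5% in NASH libraries and 20.9% to 30.6% in WT libraries.

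The promoters of these genes were set side by side. RefSeq promoters (GRCm38.p6, 250 bases before to 50 after the start site) were matched for 6 of the 10 members, the 5 Serpina1 genes and Serpina3n. The longest run of bases found in all 5 Serpina1 promoters was 59 bases, and with 30 bases on each side it gave a stretch of 119 bases, which starts at 85 to 147 bases before the start sites. The run is identical by this choice, so differences could be found only in the 60 bases outside it, where any 2 genes differed at 3 to 10, and the stretch does not measure the likeness of the whole promoters. Serpina1b and Serpina1e, the copies with the smallest and the largest log2 fold change, are shown because they are the closest pair over that stretch. They differ at 3 of those 60 bases, and the other pairs at 4 to 10. Capitals mark the 16 positions at which any of the 5 genes differ, and the stretches lie at chr12:103738166-103738284 for Serpina1b and chr12:103956926-103957044 for Serpina1e, on the minus strand.
Serpina1b: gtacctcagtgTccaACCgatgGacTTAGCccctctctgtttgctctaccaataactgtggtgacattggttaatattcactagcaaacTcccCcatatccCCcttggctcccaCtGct
Serpina1e: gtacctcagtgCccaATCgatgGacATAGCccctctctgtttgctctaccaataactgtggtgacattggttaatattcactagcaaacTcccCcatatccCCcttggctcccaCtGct
The letters TTNNGCAA, part of a C/EBP motif, were found in the promoters of Serpina1a, Serpina1b, Serpina1d and Serpina1e and in 10.8% of the 32851 promoters of the table. They began at -161, -149 and -211 bases from the start site in Serpina1b, Serpina1d and Serpina1e. In Serpina1a they began at 24, past the start site. TTCNNNGAA, a STAT motif, and TATAAA were found in 0 of the 6 promoters, Serpina3n included, and in 8.3% and 13.6% of all promoters. Both strands were searched for each, and a match or its lack describes only the letters of this window.

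The Serpina3 genes had log2 fold changes of both signs, and none of the 3 was called. Serpina3k, known in rodents as a kallikrein-binding protein, had the highest level of the family, with 11018, 6990, 2396 and 6632 CPM in NASH livers, against 12829, 11021, 15892 and 16244 CPM in WT livers. NASH replicate 1 and WT replicate 2 were almost equal, and the difference did not pass the test (log2 fold change -1.05, SE 0.43, adjusted p = 0.116). Without NASH replicate 1 it was called (adjusted p = 0.038), as it was with DESeq2 (adjusted p = 0.0217). Serpina3m had 450, 359, 314 and 531 CPM in NASH livers, against 571, 618, 480 and 499 CPM in WT livers. The groups overlapped, and the log2 fold change was -0.39 (SE 0.20, adjusted p = 0.198).

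Serpina3n, an acute phase gene whose product inhibits granzyme B in the mouse, had 513, 450, 928 and 1269 CPM in NASH livers, against 372, 405, 356 and 507 CPM in WT livers. NASH replicates 3 and 4 were well above all WT libraries, whereas NASH replicate 2 was below WT replicate 4. The log2 fold change was 0.95 (SE 0.33), and the adjusted p of 0.0739 missed the threshold. Without NASH replicate 1 or without NASH replicate 2 the gene was called, with adjusted p-values of 0.0318 to 0.0407, as it was with DESeq2 (adjusted p = 0.0185) but not with limma-voom (0.0989). Without NASH replicate 4 the log2 fold change was 0.60 (adjusted p = 0.201). With DESeq2, 7 of the 10 members were called, 6 lower and 1 higher, where 28.6% of genes were called. Within the summed counts of the 3 genes, Serpina3n made up 4.28%, 5.77%, 25.5% and 15% in NASH replicates 1 to 4, against 2.70%, 3.36%, 2.13% and 2.94% in WT replicates 1 to 4. Every NASH library was above every WT library, and NASH replicates 3 and 4 were far above the other 2. The mean share was higher by 9.87 points (two-sided exact permutation p = 0.029, not adjusted and the smallest possible here), and by 5.58 points without NASH replicate 3. With any 1 library left out the exact permutation p was 0.0571, the smallest that 3 against 4 allow. The share also depends on Serpina3k, which averaged 81.5% of the sum in NASH livers and 93.5% in WT livers. The summed Serpina3 level averaged 7962 ± 3420 CPM in NASH livers and 14948 ± 2469 CPM in WT livers (SD, n = 4 each), with a log2 fold change of -0.91 (SE 0.38, adjusted p = 0.119).

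Serpina6, the corticosterone carrier, varied the most among NASH livers relative to its mean. It had 337, 207, 29.5 and 52.4 CPM in NASH replicates 1 to 4, against 319, 320, 302 and 262 CPM in WT replicates 1 to 4. NASH replicates 3 and 4 were far below every WT library, NASH replicate 2 was somewhat below, and NASH replicate 1 was above all of them. The mean difference was accordingly uncertain (log2 fold change -0.94, SE 0.64, adjusted p = 0.311), and the log2 fold change was -1.65 without NASH replicate 1 (adjusted p = 0.0559), -0.61 without NASH replicate 3 (0.454) and -0.67 without NASH replicate 4 (0.512). Serpina10, the inhibitor of factor Xa, had 218, 180, 436 and 280 CPM in NASH livers, against 150, 148, 219 and 189 CPM in WT livers. NASH replicates 3 and 4 were above all WT libraries, NASH replicates 1 and 2 were not, and the log2 fold change of 0.66 was not called (SE 0.27, adjusted p = 0.119). Without NASH replicate 3 it was 0.34 (adjusted p = 0.247).

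**Figure D3:**
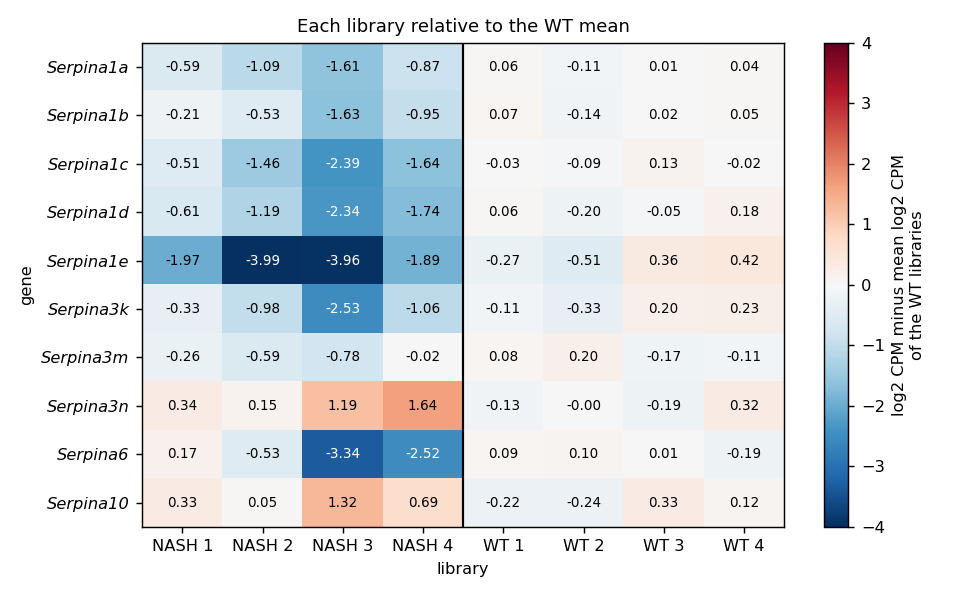
Log2 CPM of each gene (rows) in each library (columns, NASH left of the line and WT right) minus the mean of the 4 WT libraries; blue is lower and red higher. Serpina1e reaches -3.99 and -3.96 in NASH replicates 2 and 3, and in NASH replicates 3 and 4 Serpina6 reaches -3.34 and -2.52 while Serpina3n reaches 1.19 and 1.64.

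Relative to the mean of the WT libraries, every member but Serpina6 had the same sign in all NASH libraries, while the size of the difference varied. Serpina6 was above that mean in NASH replicate 1 (0.17) and below it in the other NASH libraries. Of the 10 members, 7, 8, 8 and 7 were below the lowest WT library in NASH replicates 1 to 4, and 2, 0, 2 and 2 were above the highest. The share of all genes outside the WT range was not counted for single libraries, so these counts only describe the members. NASH replicate 1 was the nearest to the WT livers for most of the lowered genes. Across the 8 libraries, log2 CPM of Serpina1b and Serpina3k had a Pearson r of 0.98, and Serpina3n and Serpina6 ran opposite to each other with an r of -0.90. Both values include the difference between the groups and describe only these libraries.

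Per kilobase of annotated exon, which adjusts for gene length alone, the order in NASH livers was Serpina3k (3286 ± 1713 CPM per kb), Serpina1b (1315 ± 510), Serpina1c (877 ± 486), Serpina1d (723 ± 362), Serpina1a (668 ± 188), Serpina1e (459 ± 324), Serpina3n (383 ± 186), Serpina3m (241 ± 56.2), Serpina6 (88.9 ± 81.8) and Serpina10 (79.6 ± 32.2). Each neighbouring pair in that order overlapped. In WT livers it was Serpina3k (6804 ± 1219 CPM per kb), Serpina1e (2916 ± 897), Serpina1c (2224 ± 147), Serpina1b (2194 ± 137), Serpina1d (1826 ± 200), Serpina1a (1333 ± 67.1), Serpina3m (315 ± 37.2), Serpina3n (199 ± 32.8), Serpina6 (171 ± 15.3) and Serpina10 (50.5 ± 9.82). There Serpina1e, Serpina1c, Serpina1b and Serpina1d overlapped as neighbours, as did Serpina3n and Serpina6, and the other neighbours did not. Serpina1e held rank 6 in NASH livers and rank 2 in WT livers, and Serpina3n rank 7 in NASH livers and rank 8 in WT livers. The order among the Serpina1 genes is uncertain, since reads that fit several copies may be lost to a different extent in each. Of stretches of 100 coding bases, 61.2% in Serpina1a and 61.7% in Serpina1c were present in another member, against 19.1% in Serpina1e.

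How far the members moved depended on what the libraries were scaled to. Without TMM, on library totals alone, the all-gene median of the log2 fold change shifted by 0.36. Serpina1a, Serpina1c, Serpina1d and Serpina1e (4 members) were then lower, where 1.78% of genes were, and Serpina3n (log2 fold change 1.36, adjusted p = 0.0284) and Serpina10 (1.09, adjusted p = 0.0469) were higher, where 24.9% of genes were. On that scale the NASH libraries of 4 members were all below the WT libraries, as for 3.12% of genes. Those of Serpina3n (1 member) were all above, as for 27.0% of genes.

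The members were also scaled to the summed counts of the 11 hepatocyte markers, a setting chosen after the values had been seen. It shifted the median of all genes by 0.84, and 60.4% of genes were then higher and 0.486% lower in NASH. Serpina1e was still lower (log2 fold change -2.02, SE 0.44, adjusted p = 0.0043), at 1.02%, 0.266%, 0.458% and 1.02% of the marker counts in NASH livers, against 2.15%, 1.71%, 3.41% and 3.94% in WT livers. The groups did not overlap. Serpina1a (log2 fold change -0.24, adjusted p = 0.354), Serpina1b (-0.01, 0.982), Serpina1c (-0.63, 0.0622), Serpina1d (-0.62, 0.0644) and Serpina3k (-0.38, 0.269) were not called on this scale. Serpina3n (1.80, SE 0.39, adjusted p = 0.00347) and Serpina10 (1.61, SE 0.44, adjusted p = 0.012) were higher, as the majority of genes were. The markers themselves differ in their change, from Hp at 1.38 to Alb at -0.99 under TMM, so this scale is not a measure of hepatocyte number.

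**Figure D4:**
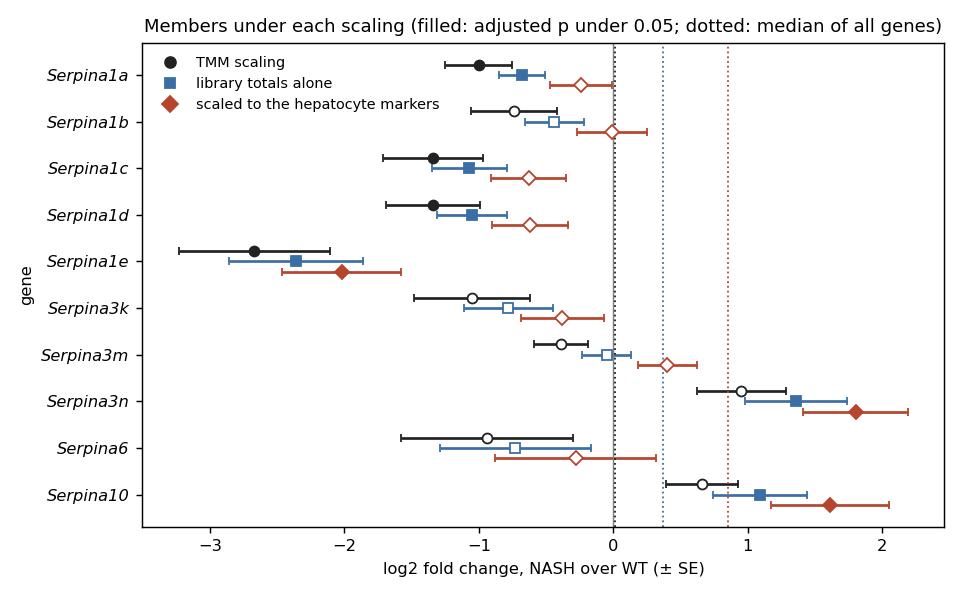
Log2 fold change of NASH over WT (horizontal axis, ± SE) for each of the 10 genes, fitted with TMM scaling (black circles), library totals alone (blue squares) and scaling to the hepatocyte markers (red diamonds), with adjusted p under 0.05 filled and the median of all genes dotted in the same colours. Serpina1e is below 0 and filled in all 3 fits, at -2.67, -2.36 and -2.02, and Serpina3m lies on either side of 0, at -0.39, -0.05 and 0.40.

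Markers of other cells differed between the groups. Of 10 stellate cell and fibroblast markers tested, 8 were higher, with summed levels of 592 to 1509 CPM in NASH livers and 347 to 475 CPM in WT livers. Of 9 macrophage markers tested, 5 were higher (369 to 1398 CPM in NASH livers and 107 to 355 CPM in WT livers). The 10 neutrophil markers, of which 4 could be tested and 0 were called, summed to 3.51, 3.55, 97.3 and 35.3 CPM in NASH replicates 1 to 4 and to 0.959 to 7.14 CPM in WT livers. NASH replicates 3 and 4, the libraries with the highest Serpina3n, also had the highest summed levels of neutrophil, macrophage, cholangiocyte and stellate cell markers, at 1398 and 781 CPM for macrophages, 755 and 414 CPM for cholangiocytes and 1072 and 1509 CPM for stellate cells. The defining neutrophil marker Ly6g had 6 counts over the NASH libraries and 0 over the WT libraries. Of 7 cholangiocyte markers 2 were higher (107 to 755 CPM in NASH livers and 80.2 to 120 CPM in WT livers), and of 6 endothelial markers tested 0 were called (178 to 336 CPM in NASH livers and 138 to 266 CPM in WT livers). The part of these cells in the Serpina values was not tested. A few genes that hepatocytes are known for were close to 0 in both groups, with Ahsg at 4.82 ± 2.02 CPM in NASH livers and 4.43 ± 1.36 CPM in WT livers (SD, n = 4 each) and Proc at 0 counts over the NASH libraries and 2 over the WT libraries. Markers of other cells were close to 0 as well. Csf1r, of the macrophage list, had 36 counts over the NASH libraries and 36 over the WT libraries. Stab2, of the endothelial list, had 18 and 28. Adgre1, of the macrophage list, and Tf, of the hepatocyte list, were absent from the deposited counts. Why was not tested.

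Genes that the serpins act on or with were examined by lists. Of 10 protease targets and partners tested, 1 was higher and 3 were lower (median log2 fold change -0.48). Mmp9, a matrix protease of leukocytes that can cleave alpha-1 antitrypsin, was higher, at 2.99 ± 3.15 CPM in NASH livers and 0.276 ± 0.206 CPM in WT livers (SD, n = 4 each), with a log2 fold change of 3.41 (SE 0.95, adjusted p = 0.0364). Klkb1, plasma kallikrein (log2 fold change -1.37, adjusted p = 0.0185), and F11, coagulation factor XI and another target of Serpina10 (-0.82, adjusted p = 0.0193), were lower. F10, whose active form Serpina10 blocks, was the third gene that was lower, at 308 ± 44.0 CPM in NASH livers and 441 ± 22.7 CPM in WT livers (SD, n = 4 each), with a log2 fold change of -0.52 (adjusted p = 0.0463). It was named after its value was seen, and its log2 fold change was 0.28 when scaled to the hepatocyte markers. Left-out libraries ended these calls: Klkb1 without NASH replicate 4 or WT replicate 1 (adjusted p = 0.0517 to 0.06), F11 without WT replicate 3 or 4 (0.0542 to 0.0581), Mmp9 without NASH replicate 3 or 4 or any 1 WT library (0.0671 to 0.0952), and F10 without any 1 library but NASH replicates 1 and 3 (0.0695 to 0.114). Scaled to the hepatocyte markers, Klkb1 (-0.62, adjusted p = 0.142) and F11 (-0.05, 0.857) were not called, F11 and F10 were not on library totals (adjusted p = 0.0634 and 0.335), and Mmp9 was not with limma-voom (0.147). Proz, the protein Z that Serpina10 needs as its cofactor, was not called (-0.43, adjusted p = 0.0944). Elane, Prtn3 and Ctsg, the elastase-type proteases of neutrophils, were too low to be tested, with 51, 288 and 39 counts over the NASH libraries and 5, 1 and 0 over the WT libraries.

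Of 14 acute phase signalling genes tested, 0 were higher and 2 were lower (median log2 fold change 0.11). These were Il6ra, the receptor of interleukin 6, at 41.9 ± 10.0 CPM in NASH livers and 84.8 ± 10.1 CPM in WT livers (SD, n = 4 each), with a log2 fold change of -1.02 (SE 0.18, adjusted p = 0.00978), and Il1rap, a part of the interleukin 1 receptor (-1.18, SE 0.30, adjusted p = 0.027). Il6ra was called without any 1 library, whereas Il1rap was not called without NASH replicate 4 or any 1 WT library (adjusted p = 0.0575 to 0.0707). Scaled to the hepatocyte markers neither was called, with Il6ra at -0.24 (adjusted p = 0.32) and Il1rap at -0.41 (0.178). Stat3, which carries the interleukin 6 signal, had a log2 fold change of 0.20 (adjusted p = 0.425), and of 1.02 on that scale (adjusted p = 0.00668), on which most genes were higher. Of 11 hepatocyte transcription factors tested, 4 were lower and 0 higher (median -0.40): Foxa3 (-0.82, adjusted p = 0.00735), Prox1 (-0.78, adjusted p = 0.0225) and Bcl6, a repressor with higher levels in male liver (-1.73, adjusted p = 0.0152), with Nr5a2 (-0.40, adjusted p = 0.0371). Scaled to the hepatocyte markers, Bcl6 was still lower (-0.95, adjusted p = 0.0238), but Foxa3 (0.02), Prox1 (0.01) and Nr5a2 (0.43) had positive values and were not called. On library totals these 3 were not called either (adjusted p = 0.0899, 0.15 and 0.786). Prox1 was also not called without any 1 WT library (adjusted p = 0.053 to 0.0603), and Nr5a2 not without any 1 library but NASH replicate 1 (0.0583 to 0.0948). Hnf4a was not called (-0.59, SE 0.21, adjusted p = 0.0782).

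Of 10 corticosteroid genes tested, 3 were lower and 0 higher (median log2 fold change -0.98). Tsc22d3, a target of the glucocorticoid receptor also known as GILZ, had 59.6 ± 23.6 CPM in NASH livers and 179 ± 21.1 CPM in WT livers (SD, n = 4 each), with a log2 fold change of -1.58 (SE 0.26, adjusted p = 0.00757). Hsd11b1, which regenerates active corticosterone in liver (-1.32, adjusted p = 0.0109), and Tat, tyrosine aminotransferase, a classical glucocorticoid target (-1.67, adjusted p = 0.0186), were the others. Leaving out NASH replicate 4, WT replicate 1 or WT replicate 4 ended the call of Tat (adjusted p = 0.0574, 0.0541 and 0.05, the last at the threshold). Scaled to the hepatocyte markers, Hsd11b1 was not called (-0.55, adjusted p = 0.0598), while Tsc22d3 (-0.80, adjusted p = 0.0166) and Tat (-0.96, 0.012) were called with smaller values. The receptor gene Nr3c1 was not called (-0.24, adjusted p = 0.194), but was called as lower without NASH replicate 1 (adjusted p = 0.0353). Its sign turned on library totals (0.11, adjusted p = 0.514). Scaled to the hepatocyte markers, Nr3c1 was called as higher (0.59, adjusted p = 0.0408), as 60.4% of genes were. The 11 genes tested for export and quality control of secreted proteins, cargo receptors among them, had 0 calls (median 0.06).

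The other Serpina genes gave 1 call. Serpina7, thyroxine-binding globulin, which like Serpina6 carries a hormone and inhibits no protease, lies on the X chromosome, outside the cluster. It had 274, 337, 824 and 486 CPM in NASH livers, against 64.7, 64.0, 82.1 and 30.3 CPM in WT livers. The groups were far apart, and it rose by 2.99 on the log2 scale (SE 0.42, adjusted p = 0.00542), a call kept without any 1 library. The other 7 tested, Serpina3c, Serpina3f, Serpina3g, Serpina5, Serpina9, Serpina11 and Serpina12, had overlapping groups under TMM and were not called. Serpina3g came nearest (log2 fold change 0.87, adjusted p = 0.0953) and was called without WT replicate 2 (adjusted p = 0.0367). On library totals its NASH libraries were all above the WT libraries, as for 27.0% of genes, and it was called (1.24, adjusted p = 0.0338). Scaled to the hepatocyte markers, where 60.4% of genes were higher, Serpina3g (1.73, adjusted p = 0.00211), Serpina11 (0.69, 0.0478) and Serpina12 (0.87, 0.0111) were called. Serpina9 was called as lower without NASH replicate 1 (log2 fold change -2.57, adjusted p = 0.0427). Serpina3a, Serpina3b, Serpina3i and Serpina3j were too low to test.

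Of 14 serpins of other clades tested, 6 were higher and 2 lower (median log2 fold change 0.08). Serpinh1, a collagen chaperone of the endoplasmic reticulum, had 45.2 ± 10.3 CPM in NASH livers and 13.2 ± 1.39 CPM in WT livers (SD, n = 4 each), with a log2 fold change of 1.78 (SE 0.18, adjusted p = 0.00199). Serpinb9, an intracellular inhibitor of granzyme B, was higher (1.32, adjusted p = 0.00953), and Serpine2, protease nexin 1, was lower (-1.65, adjusted p = 0.0145). Scaled to the hepatocyte markers these 2 had 2.28 and -0.95 and were still called. Serpinc1, antithrombin, the most abundant serpin of another clade here, was not called (-0.62, adjusted p = 0.0983; 0.0488 without NASH replicate 1).

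The genes most like Serpina3n over the 8 libraries, by Pearson's r of log2 CPM, were St3gal1 (0.982), Irak4 (0.979) and Bcl7b (0.978). Under TMM none of them was called, but Irak4 was without NASH replicate 1 (adjusted p = 0.0427). On library totals each was called as higher (adjusted p = 0.0439, 0.0301 and 0.0381), as 24.9% of genes were. Each was also higher when scaled to the hepatocyte markers (adjusted p = 0.00478, 0.00367 and 0.00657), where 60.4% of genes were. Irak4 had 21.2 ± 4.83 CPM in NASH livers and 15.4 ± 1.39 CPM in WT livers (SD, n = 4 each; edgeR adjusted p = 0.0842). The genes most like the mean of the other 9 members were Afmid (0.994), 1300017J02Rik (0.991) and Cyp2c44 (0.991), each lower in NASH, though not without NASH replicate 4 or any 1 WT library (adjusted p = 0.0553 to 0.115), nor, for 1300017J02Rik and Cyp2c44, without NASH replicate 2. Afmid had 13.4 ± 6.15 CPM in NASH livers and 29.8 ± 2.69 CPM in WT livers (SD, n = 4 each), with a log2 fold change of -1.16 (edgeR adjusted p = 0.0283). Scaled to the hepatocyte markers, Afmid (-0.44, adjusted p = 0.165), 1300017J02Rik (0.12, 0.628) and Cyp2c44 (-0.58, 0.0705) were not called. These genes were picked as the highest of all genes tested, so the values describe likeness in these libraries.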

How the data were processed

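Per the labels' protocols, RNA was extracted from liver with Trizol, and a TruSeq kit that keeps strand made the libraries from total RNA. The submitters' processing notes name HISAT2 and HTSeq 0.9.1 and list the builds mm9 and mm10 without a role. For the annotation, the strand setting and reads that fit several genes, the choice made is not given in the sources used here. Raw counts per gene were deposited by the authors, per the file headers; 8 columns of normalized values were not used.

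Genes were filtered by edgeR's default rule, scaled by TMM and tested with edgeR 4.0.16 (quasi-likelihood, robust, R 4.3.3) on 8 libraries without covariates; p-values were adjusted over all genes tested, threshold 0.05. The SE is the log2 fold change divided by the square root of F. For the sums, the member rows were replaced by their sum in the same test. Shares were compared by two-sided exact permutation. The tests were checked on simulated data. Alternatives were DESeq2 1.42.0, library totals alone, limma-voom (limma 3.58.1), no filter, each library left out, the replicate number as a block, and hepatocyte marker scaling, which was added after seeing the data.

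Named are the 10 members, every other Serpina gene, the 3 called genes of smallest p in each of 6 lists, and the 3 genes most alike; others named were chosen for their role or after their values were seen. Members and lists were chosen with earlier results of these data known. Coding sequences and exon lengths are from GENCODE (GRCm38), promoters from RefSeq. Sequence was taken from the reference, not from these mice.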

Additional observations from a re-analysis of the deposited data

How the results depend on the processing

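Each member kept its direction in all 14 alternatives, except Serpina3m, whose log2 fold change of -0.39 became 0.40 when scaled to the hepatocyte markers. The 4 lower members became 1 (Serpina1e) under the replicate block and under hepatocyte marker scaling, and 1 to 6 when a library was left out. The 0 higher members became 1 with DESeq2, 2 with library totals alone and 2 with hepatocyte marker scaling, and 0 to 1 when a library was left out. The Serpina1 sum (-1.30) lost its call under the replicate block (-1.38, adjusted p = 0.0827) and under hepatocyte marker scaling (-0.58, adjusted p = 0.0696). Its call was also lost without 6 of the 8 libraries in turn (-1.37 to -1.25). The call was kept without NASH replicate 1 (-1.57) and without NASH replicate 3 (-1.10). The Serpina3 sum gained a call with DESeq2 (-0.92, adjusted p = 0.0181) and without NASH replicate 1 (-1.18; range -1.18 to -0.68). With a library left out, the shares differed by 2.74 to 4.77 points (Serpina1a), 11.8 to 15.5 (Serpina1b), -2.34 to -0.584 (Serpina1c), -1.31 to 0.174 (Serpina1d, turned without NASH replicate 4), -18.4 to -13.9 (Serpina1e) and 5.58 to 12.7 (Serpina3n). With 3 libraries against 4 no exact permutation p can go below 0.0571, so no share can pass there. The share of Serpina3n (9.87 points) gave that exact p without any 1 library, and did not pass under the replicate block (exact p = 0.125, the smallest that 4 pairs allow). Of 38 other genes named with a test, 21 of them called, 10 turned under hepatocyte marker scaling (Foxa3 0.02, Prox1 0.01, F10 0.28, Proz 0.35, Nr5a2 0.43, Hnf4a 0.18, Nr3c1 0.59, Serpinc1 0.14, Serpina11 0.69, 1300017J02Rik 0.12) and 2 with library totals alone (Nr3c1 0.11, Serpina11 0.25). Of the 21 calls, 7 were lost under hepatocyte marker scaling with the sign kept (Klkb1, F11, Il6ra, Il1rap, Hsd11b1, Afmid, Cyp2c44), besides those that turned, 6 with library totals alone (F11, Foxa3, Prox1, F10, Nr5a2, 1300017J02Rik), 0 with DESeq2, which added 4 (Proz, Hnf4a, Serpinc1, Alb), 1 with limma-voom (Mmp9), 2 without the filter (F10, 1300017J02Rik) and 10 under the replicate block. Genes that were not called turned without 1 library: Ahsg (-0.20 to 0.30), Serpina3c (-0.16 to 0.63), Serpina3f (-0.12 to 0.58), Serpina11 (-0.30 to 0.01) and Serpina12 (-0.05 to 0.16). Library totals alone added 4 calls (Serpina3g, St3gal1, Irak4, Bcl7b). Hepatocyte marker scaling added 7 with the sign kept (the same genes with Stat3, Ahsg and Serpina12). Of the genes that turned there, Nr3c1 and Serpina11 were called as higher (adjusted p = 0.0408 and 0.0478). Csf1r, named for its low counts, is not among the 38 genes. The cause of these changes was not tested. The lowest count of any member in any library was 1164 (Serpina6). Same-numbered NASH and WT libraries did not deviate together (correlations -0.14 to 0.03, and no library was most like its own number), so the replicate block is not taken as a pairing. The block gave 467 higher and 151 lower genes over the whole table, against 1597 and 741 without it. With a library left out the table gave 636 to 2238 higher and 185 to 1504 lower genes.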
